A study of Mus musculus with 2 samples.

Results

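Aminoacyl-tRNA synthetases are the enzymes that join each amino acid to its transfer RNA (tRNA). A list of 36 genes was drawn up, and a gene was taken as a member where its symbol stood in the deposited expression tables of both libraries. Of the 36 genes, 35 were found, out of 22886 genes in all, and they comprised 19 cytosolic enzymes and 16 mitochondrial enzymes, whose symbols end in 2. The alanine enzyme Aars was absent under its own symbol. Its RefSeq accession stood in a locus listed as Exosc6 (mm9 chr8:113557866-113581499), an RNA exosome gene chosen after its values were seen, at 26.7 RPKM in the vehicle library and 32.2 RPKM in the clodronate library, and the reads of these genes cannot be told apart there. RPKM express reads per transcript length and per library size.

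The study compared polyA RNA of cells that its labels call aerobic tumor cells, sorted by flow cytometry from subcutaneous tumors of the Lewis lung carcinoma (LLC), a transplantable tumor of mouse lung. Both groups were wild type C57BL/6 mice bearing these tumors, and they received either vehicle or clodronate, a drug that kills macrophages when it is given in liposomes. There was 1 library per condition, and the labels give no dose, time, age or number of mice. A growth protocol in the labels names EML cells, a blood progenitor line, which conflicts with the labels of tissue and source. With 1 library per condition no difference has a replicate check, no p-value is given, and the values describe these 2 libraries and not the conditions.

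The cell types in the libraries were checked against marker lists. The 10 macrophage markers summed to 21642 RPKM in the vehicle library and 21282 RPKM in the clodronate library, and every marker was found in both. The largest value in these sums was that of Lyz2, at 10534 and 11189 RPKM. C1qc was lower in the clodronate library, at 3984 and 2043 RPKM, and so was Adgre1, at 357 and 261 RPKM. The other 8 of the 10 markers had a log2 ratio above 0, and the median of the 10 was 0.23. Of these 8, C1qb, Csf1r and Lyz2 lay close to 0, at 0.005, 0.06 and 0.09. Of all genes averaging 1 RPKM or more, 51.6% lay above 0. The 5 epithelial markers summed to 12.8 and 11.0 RPKM, with Epcam and Krt19 listed at 0 in both libraries, so macrophage and not epithelial markers were abundant in libraries labelled as tumor cells. The 5 fibroblast markers summed to 145 and 71.1 RPKM, the 6 T and NK cell markers to 11.1 and 7.83 RPKM, the 4 endothelial markers to 2.37 and 7.40 RPKM, the neutrophil markers to 12.7 and 23.1 RPKM and the blood progenitor markers to 5.41 and 2.62 RPKM. Of the neutrophil markers, 3 were listed at 0 in both libraries, and so were both erythroid markers that were found. The T and NK cell sum was mostly Cd4, at 10.3 and 7.72 RPKM, with Cd3e, Cd3g and Ncr1 listed at 0 in both libraries. The fibroblast sum was mostly Dcn, at 77.3 and 28.4 RPKM, and Col3a1, at 62.1 and 34.4 RPKM. Col1a1 was higher in the clodronate library, at 2.32 and 5.40 RPKM, and the other 4 fibroblast markers had a log2 ratio below 0. The part of these cell types in the differences between the libraries was not tested, and fewer cells of a type and less RNA per cell cannot be told apart.

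Each synthetase recognizes its amino acid and its tRNAs, and most organisms need an enzyme for each amino acid. Mammalian cells carry separate nuclear genes for the enzymes of the cytosol and of the mitochondrion, except that Kars and Gars each encode both forms and that mitochondria make glutaminyl-tRNA by an amidotransferase. Several cytosolic enzymes are held in the multisynthetase complex, and the enzymes fall into class I and class II by the fold of their catalytic domain. When uncharged tRNAs accumulate, the kinase GCN2 phosphorylates eIF2, and the transcription factor ATF4 then raises the transcription of many cytosolic synthetase genes.

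The motif to which ATF4 binds together with C/EBP proteins, TGATGNAA, was searched for on both strands (reverse complement TTNCATCA) in the RefSeq promoters of the members, 300 bases from 250 before to 50 after the gene start in the build GRCm38.p6. Promoters were found for 27 of the 36 listed genes, 13 cytosolic and 14 mitochondrial, and no entry was matched for Cars, Hars, Hars2, Lars, Nars, Pars2, Rars, Vars and Wars. The motif was found in 5 of the 27 promoters (18.5%), those of Aars, Gars, Iars, Tars and Yars, and in 3.97% of all 32851 promoters of the same length. All 5 were among the 8 promoters found for cytosolic synthetases listed as induced by ATF4, and none of the 14 mitochondrial promoters held the motif. The promoters of the 4 genes that have values of their own are shown on the strand of the gene, with the motif in capitals, because they are the members in which a known regulatory sequence could be set beside the measured levels.
Yars, GRCm38.p6 chr4:129189653-129189952, plus strand: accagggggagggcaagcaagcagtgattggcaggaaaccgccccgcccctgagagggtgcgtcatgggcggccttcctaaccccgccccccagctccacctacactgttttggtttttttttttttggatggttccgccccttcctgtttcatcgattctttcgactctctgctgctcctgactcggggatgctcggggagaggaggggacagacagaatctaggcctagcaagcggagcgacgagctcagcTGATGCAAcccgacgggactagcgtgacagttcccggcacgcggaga
Gars, GRCm38.p6 chr6:55037751-55038050, plus strand: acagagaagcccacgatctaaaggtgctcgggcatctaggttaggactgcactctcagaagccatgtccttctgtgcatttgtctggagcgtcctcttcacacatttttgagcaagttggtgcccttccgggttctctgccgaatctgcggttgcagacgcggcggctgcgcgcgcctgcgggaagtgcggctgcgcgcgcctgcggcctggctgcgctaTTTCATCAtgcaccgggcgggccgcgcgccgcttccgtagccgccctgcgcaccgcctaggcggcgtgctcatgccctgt
Iars, GRCm38.p6 chr13:49681880-49682179, plus strand: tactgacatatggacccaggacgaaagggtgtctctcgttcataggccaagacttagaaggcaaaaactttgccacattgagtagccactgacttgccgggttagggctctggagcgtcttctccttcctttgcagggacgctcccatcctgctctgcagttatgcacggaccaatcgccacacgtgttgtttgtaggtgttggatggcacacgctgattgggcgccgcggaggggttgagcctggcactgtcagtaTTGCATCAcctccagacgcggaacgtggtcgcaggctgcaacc
Tars, GRCm38.p6 chr15:11399609-11399908, minus strand: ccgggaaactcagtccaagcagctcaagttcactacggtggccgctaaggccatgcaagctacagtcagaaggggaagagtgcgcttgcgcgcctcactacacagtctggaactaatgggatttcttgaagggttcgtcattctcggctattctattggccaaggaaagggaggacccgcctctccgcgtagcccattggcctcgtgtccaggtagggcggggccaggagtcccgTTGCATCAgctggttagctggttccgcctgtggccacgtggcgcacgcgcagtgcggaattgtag

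The motif began at the base 4 after the start of Yars, counting the start as 1, and at the base 8 after the start of Iars. It began 30 bases before the start of Gars and 15 bases before that of Tars. Yars carried it on the strand of the gene and the other genes on the opposite strand. The stricter form TGATGCAA (reverse complement TTGCATCA) was present in Aars, Iars, Tars and Yars and in 0.895% of all promoters, and it overlaps the former motif by construction. A match describes the letters of the window and not a bound site. The levels of the 4 genes did not move alike. Yars stood at 3.80 RPKM in the vehicle library and 8.35 RPKM in the clodronate library, Iars at 17.8 and 22.5 RPKM, Gars at 23.7 and 29.8 RPKM, and Tars at 12.1 and 11.1 RPKM.

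Other promoter motifs were spread differently. CCGGAAG (reverse complement CTTCCGG), a core of ETS family sites, was found in 9 of the 27 promoters, against 8.86% of all promoters. These were Farsa, Gars, Kars, Mars and Sars among the cytosolic genes and Cars2, Mars2, Rars2 and Sars2 among the mitochondrial genes. GCGCATG (reverse complement CATGCGC), part of the site of NRF-1, a regulator of nuclear genes for mitochondrial proteins, was found in Rars2, Vars2 and Wars2, against 3.91% of all promoters. The whole NRF-1 palindrome was found in 0 of the 27, against 0.971% of all promoters. CACGTG, the E-box that MYC and related factors bind, was found in 5 (Aars, Ears2, Farsb, Iars and Tars), against 7.15% of all promoters.

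Cytosolic synthetases were the more abundant. Their median was 20.0 RPKM in the vehicle library and 22.5 RPKM in the clodronate library, and the median of the 15 mitochondrial synthetases whose values averaged 1 RPKM or more was 3.81 and 3.23 RPKM. The cytosolic median was thus 5.24 and 6.95 times the mitochondrial median. Apart from Lars2, no mitochondrial enzyme reached the cytosolic median in either library. In the vehicle library 15 of the 19 cytosolic enzymes stood above the highest of the other mitochondrial enzymes, Cars2, and in the clodronate library 14 stood above the highest, Iars2. The ranges met at their ends, with 7 mitochondrial enzymes other than Lars2 above the lowest cytosolic enzyme, Yars, in the vehicle library and 2 in the clodronate library.

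**Figure D1:**
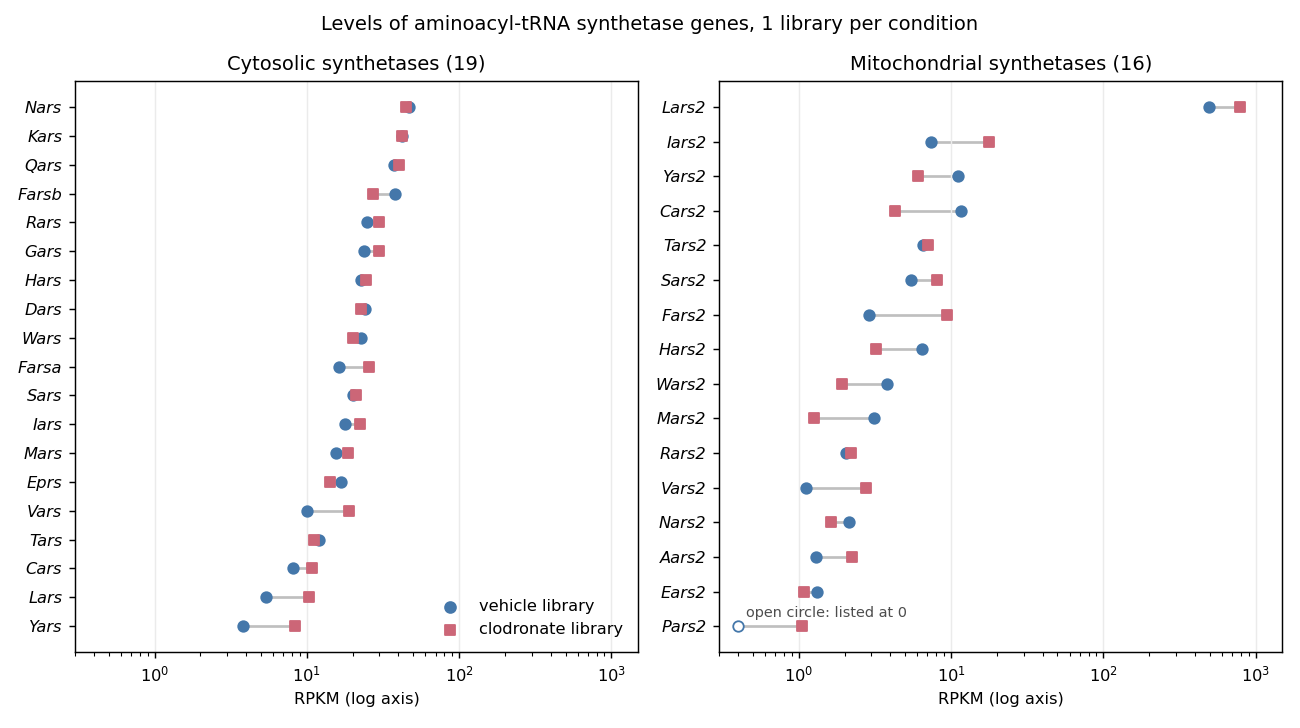
Level of each synthetase gene in RPKM on a log axis, with the 19 cytosolic enzymes on the left and the 16 mitochondrial enzymes on the right; circles mark the vehicle library and squares the clodronate library, with no error bars because there was 1 library per condition. The cytosolic symbols of most genes lie close together, the mitochondrial symbols are further apart, and Lars2 stands alone at 493 and 793 RPKM; the open circle of Pars2 stands for a value listed at 0.

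The change between the libraries was taken, after 1 RPKM was added to each value, as the log2 of clodronate over vehicle, called the log2 ratio. The added RPKM makes the ratio of a weakly expressed gene smaller than its plain ratio. A member was counted as higher or lower where this ratio reached 1.5-fold. Of the 34 members that averaged 1 RPKM or more, 8 were at least 1.5-fold higher in the clodronate library and 5 were at least 1.5-fold lower. Of all 10982 genes kept, 16.6% were higher and 16.3% lower by this measure, together 32.9%. The median log2 ratio was 0.10 for the 19 cytosolic enzymes, 0.07 for the 15 mitochondrial enzymes and 0.02 for all genes kept, so the compartments did not differ in their middle value by more than 0.04. They differed in spread. The standard deviation of the log2 ratio over genes was 0.39 for the cytosolic and 0.81 for the mitochondrial enzymes, and 0.91 for all genes kept.

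Among the cytosolic enzymes, 4 of 19 (21.1%) were at least 1.5-fold higher and 0 lower, and among the mitochondrial enzymes 4 of 15 were higher and 5 lower, together 60.0%. Shares past 1.5-fold depended on level, so the members were also split at a mean of 10 RPKM. Of the 16 cytosolic enzymes at or above it, 2 were higher (Farsa and Vars, 12.5%) and 0 lower, against 12.0% higher and 11.7% lower among all genes of that level, a share near the background. The 3 cytosolic enzymes under it were Lars and Yars, which were higher, and Cars. Of the 13 mitochondrial enzymes under it, 2 were higher and 5 lower, together 53.8%, against 22.1% higher and 21.6% lower, together 43.7%, among all genes of that level. The 2 mitochondrial enzymes above it, Lars2 and Iars2, were both higher. The median size of the log2 ratio, without its sign, was 0.24 for all 19 cytosolic enzymes and 0.32 for all genes of 10 RPKM or more. It was 0.71 for all 15 mitochondrial enzymes and 0.51 for all genes below 10 RPKM. The mitochondrial enzymes thus moved in both directions, and the 4 cytosolic enzymes past 1.5-fold were all higher. After a correction for GC content and length, 2 of these 4 remained past 1.5-fold, Lars and Yars, and 0 of the 16 at or above 10 RPKM. Of the 13 mitochondrial enzymes under 10 RPKM, 1 was then higher and 5 lower.

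The precision that sequencing depth gave was estimated from the steps between the lowest RPKM values, which put the libraries at about 13800000 fragments (vehicle) and 11200000 fragments (clodronate). Members other than Lars2 then held between 34 and 1627 fragments in the vehicle library and between 22 and 1258 in the clodronate library. An exact 95% interval for the plain ratio of RPKM, called the counting interval, follows from these numbers and covers counting error only. It left out a ratio of 1 for 23 of the 34 members, 15 higher and 8 lower, against 75.1% of all genes kept with a known length, 39.4% higher and 35.7% lower.

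**Figure D2:**
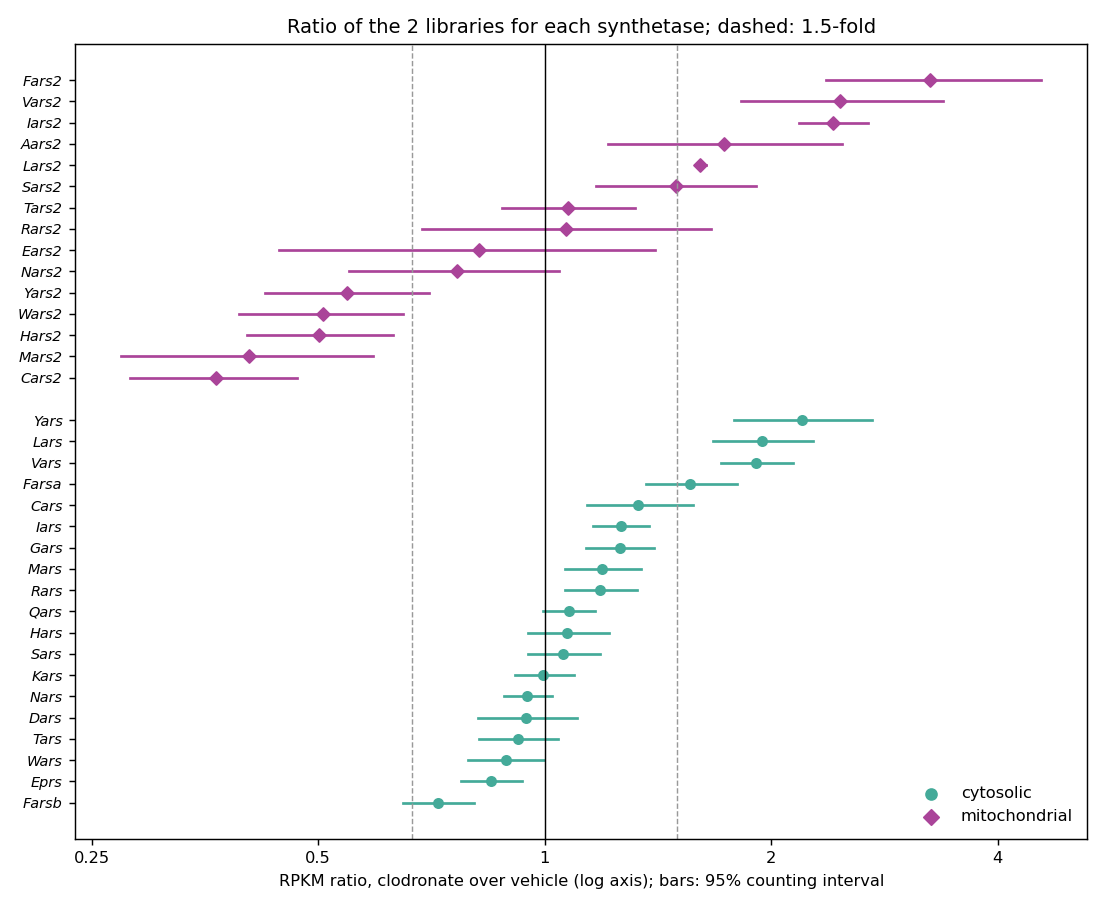
Plain ratio of RPKM, clodronate over vehicle, on a log axis for the 34 synthetases averaging 1 RPKM or more; points are single genes, bars are the 95% counting intervals, diamonds are mitochondrial and circles cytosolic enzymes, and dashed lines mark 1.5-fold. Mitochondrial enzymes spread from Cars2 at 0.37 to Fars2 at 3.25 and cytosolic enzymes from Farsb at 0.72 to Yars at 2.197; Aars2, at 1.73, lies past the dashed line on this plain scale but not on the log2 ratio used for the counts.

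Of the 8 enzymes of the multisynthetase complex, 1 (12.5%) was at least 1.5-fold higher, 0 were lower, and the median log2 ratio was 0.17. Among all genes kept, 16.6% were higher and 16.3% lower. Lars, the leucine enzyme, which also senses leucine for the mTORC1 pathway, stood at 5.36 RPKM in the vehicle library and 10.4 RPKM in the clodronate library, 1.94-fold higher (counting interval 1.67 to 2.27). The other complex enzymes lay within 1.5-fold. The isoleucine enzyme Iars, at 17.8 and 22.5 RPKM, had a log2 ratio of 0.32. The methionine enzyme Mars, at 15.6 and 18.6 RPKM, and the arginine enzyme Rars, at 24.99 and 29.6 RPKM, both had a log2 ratio of 0.24. Their counting intervals and that of Iars lay above 1. The glutamine enzyme Qars, at 37.2 and 40.0 RPKM, and the lysine enzyme Kars, at 42.4 and 42.2 RPKM, were the most abundant of the complex, with log2 ratios of 0.10 and -0.01. The aspartate enzyme Dars stood at 24.03 and 22.7 RPKM, with a log2 ratio of -0.08. For Qars, Kars and Dars the counting interval held 1. Eprs, the fused glutamate and proline enzyme, was lower in the clodronate library, at 14.1 against 16.7 RPKM and a log2 ratio of -0.22, with a counting interval below 1. Mars shares its locus span in the files with Ddit3, the gene of the stress factor CHOP, at 44.7 and 59.8 RPKM, and whether reads were counted by strand is not stated.

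The 3 scaffold proteins of the complex did not follow its enzymes in 1 direction. Aimp1 stood at 34.7 RPKM in the vehicle library and 21.6 RPKM in the clodronate library, a log2 ratio of -0.66, the only scaffold past 1.5-fold. After correcting for GC content and length it lay at -0.54 and fell short of 1.5-fold. Among all genes kept, 16.3% were at least 1.5-fold lower. Eef1e1, the scaffold also known as AIMP3, stood at 18.5 and 12.0 RPKM, a log2 ratio of -0.58. It was just short of 1.5-fold on this measure, and its plain ratio was 1.54, vehicle over clodronate. Aimp2, which joins the lysine enzyme to the complex, stood at 15.2 and 21.7 RPKM, a log2 ratio of 0.49.

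Of the 11 cytosolic enzymes outside the complex, 3 (27.3%) were at least 1.5-fold higher and 0 lower, with a median log2 ratio of 0.10. Among all genes kept, 16.6% were higher and 16.3% lower. After a correction for GC content and length, Yars alone of these 3 remained past 1.5-fold. The tyrosine enzyme Yars had the largest ratio of the cytosolic enzymes, at 3.80 RPKM in the vehicle library and 8.35 RPKM in the clodronate library, 2.197-fold higher (counting interval 1.78 to 2.72). It shares its locus span (mm9 chr4:128867038-128925687) with the uncharacterized gene C77080, chosen after its values were seen, which stood lower in the clodronate library at 3.51 against 4.95 RPKM. The valine enzyme Vars stood at 9.96 and 19.0 RPKM, 1.91-fold higher (counting interval 1.72 to 2.14). With a correction for GC content and length its log2 ratio moved from 0.87 to 0.52 and fell short of 1.5-fold.

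The phenylalanine enzyme is built of a catalytic alpha chain, Farsa, and a beta chain, Farsb, and the genes of these chains lay on opposite sides. Farsa stood at 16.4 RPKM in the vehicle library and 25.5 RPKM in the clodronate library, 1.56-fold higher (counting interval 1.36 to 1.799). Farsb stood at 37.7 and 27.2 RPKM and was the lowest of the cytosolic log2 ratios at -0.46, within 1.5-fold but with a counting interval below 1. The ratio of Farsa to Farsb was 0.43 in the vehicle library and 0.94 in the clodronate library, so that the chains were nearer to equal level in the latter. Farsa fell short of 1.5-fold after correcting for GC content and length, at a log2 ratio of 0.50, and with upper quartile scaling, at 0.55, and the correction moved Farsb from -0.46 to -0.27. The signs stayed opposite under both.

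The other cytosolic enzymes differed less. The cysteine enzyme Cars stood at 8.09 and 10.8 RPKM (log2 ratio 0.37), and the glycine enzyme Gars at 23.7 and 29.8 RPKM (0.32). Both had counting intervals above 1. The histidine enzyme Hars, at 22.8 and 24.4 RPKM, and the serine enzyme Sars, at 20.0 and 21.2 RPKM, had log2 ratios of 0.10 and 0.08. The asparagine enzyme Nars, the most abundant cytosolic member, stood at 47.0 and 44.5 RPKM (log2 ratio -0.07), and the threonine enzyme Tars at 12.1 and 11.1 RPKM (-0.11). For Hars, Sars, Nars and Tars the counting interval held 1. The tryptophan enzyme Wars stood at 22.5 and 20.0 RPKM, a log2 ratio of -0.16, and its counting interval ended just below 1.

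Wars is a gene that interferon-gamma induces, and 6 other genes of that response were set beside it. Of the 5 that averaged 1 RPKM or more, 2 were at least 1.5-fold higher and 2 lower, against 16.6% and 16.3% of all genes kept. The chemokine Cxcl10 stood at 46.8 and 78.6 RPKM, higher in the clodronate library. The guanylate-binding protein Gbp2 stood at 81.3 and 50.7 RPKM and the chemokine Cxcl9 at 60.4 and 35.3 RPKM, lower in the clodronate library. Ido1, the tryptophan-degrading enzyme, was listed at 0 in both libraries. The response as listed had no common direction, and Wars moved less than Cxcl10, Gbp2 and Cxcl9.

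Of the 12 cytosolic enzymes listed as induced by ATF4 that were found, 3 were at least 1.5-fold higher (Lars, Vars and Yars) and 0 lower, against 16.6% higher among all genes kept, and their median log2 ratio was 0.28. After correcting for GC content and length 2 of the 12 remained higher, Lars and Yars. The uncorrected median log2 ratio was 0.10 for the 7 other cytosolic enzymes. With the correction the medians lay nearer, at 0.21 for the 12 and 0.12 for the 7. By catalytic class, 8 of the 9 class I cytosolic enzymes had a log2 ratio above 0 and their median was 0.32, while 4 of the 9 class II cytosolic enzymes lay above 0 and their median was -0.01. Among all genes kept 51.6% lay above 0, so the class II share was near the background. Eprs, which belongs to both classes, was left out of this split. The classes overlapped, since the class II enzyme Farsa lay above most class I enzymes and the class I enzyme Wars lay below 0. Among the mitochondrial enzymes the order of the medians was reversed. There 4 of 9 class I enzymes lay above 0, with a median of -0.16, and 4 of 6 class II enzymes, with a median of 0.29. These shares are of few genes and lie on either side of the 51.6% of all genes kept, so no difference between the classes is read from them.

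Most genes upstream of the synthetases in this pathway had a log2 ratio below 0, and most lay within 1.5-fold. Among all genes kept, 48.4% lay below 0, 16.6% were at least 1.5-fold higher and 16.3% lower. Atf4 stood at 384 RPKM in the vehicle library and 329 RPKM in the clodronate library, a log2 ratio of -0.22. Of the 5 genes of eIF2 kinases and the GCN2 activator Gcn1l1, 0 were at least 1.5-fold higher and 1 lower, Eif2ak4, the gene of GCN2, at 10.7 and 6.08 RPKM. Their median log2 ratio was -0.42, with 4 below 0 and 1 above 0, Gcn1l1, at 9.06 and 10.96 RPKM, which lay at -0.17 after correcting for GC content and length. Of 21 genes of the integrated stress response and amino acid supply, 4 were at least 1.5-fold higher and 2 lower, with a median log2 ratio of 0.16. The transcription factor Atf5 stood at 2.65 and 12.2 RPKM, Psph, the last enzyme of serine synthesis, at 1.52 and 5.598 RPKM, and Psat1, of the same pathway, at 9.29 and 15.9 RPKM. The leucine transporter Slc7a5, higher like these, stood at 8.90 and 16.0 RPKM, but after correcting for GC content and length its log2 ratio was 0.54, short of 1.5-fold. Asns, asparagine synthetase, stood at 7.41 and 3.51 RPKM, and Ddit4, an inhibitor of mTORC1, at 4.55 and 1.62 RPKM. Targets of ATF4 thus lay on both sides.

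The mitochondrial enzymes fell into a higher, a lower and a middle group. Fars2, the phenylalanine enzyme (mm9 chr13:36209279-36629462), stood at 2.88 RPKM in the vehicle library and 9.35 RPKM in the clodronate library, 3.25-fold higher (counting interval 2.37 to 4.57), the largest ratio of the 34 members. Iars2, the isoleucine enzyme (mm9 chr1:187028046-187153280), stood at 7.39 and 17.9 RPKM, 2.42-fold higher (2.18 to 2.69). Vars2, the valine enzyme, stood at 1.12 and 2.76 RPKM, 2.47-fold higher (1.83 to 3.39). These enzymes and Lars2 were the 4 past 1.5-fold upward. Iars2 shares its locus span with Rab3gap2, a regulator of Rab proteins chosen after its values were seen, at 13.0 and 17.5 RPKM. With the correction for GC content and length the log2 ratio of Vars2 moved from 0.83 to 0.47 and fell short of 1.5-fold, while Fars2 and Iars2 stood at 1.32 and 1.14.

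The lower group held 5 enzymes. Cars2, the cysteine enzyme (mm9 chr8:11514016-11550771), stood at 11.7 RPKM in the vehicle library and 4.26 RPKM in the clodronate library, 2.74 times as high in the former (counting interval 2.13 to 3.56). Mars2, the methionine enzyme, stood at 3.11 and 1.26 RPKM, 2.47 times as high in the vehicle library (1.69 to 3.65). Hars2, the histidine enzyme, stood at 6.45 and 3.23 RPKM, 1.99 times as high (1.59 to 2.49). All intervals of the group lay clear of 1. Wars2, the tryptophan enzyme, stood at 3.81 and 1.93 RPKM, 1.97 times as high (1.54 to 2.55), and Yars2, the tyrosine enzyme (mm9 chr16:16303057-16309733), at 11.2 and 6.10 RPKM, 1.83 times as high (1.43 to 2.36). With the correction for GC content and length these enzymes had log2 ratios between -1.38 and -0.66, past 1.5-fold in each case.

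The middle group lay within 1.5-fold on the log2 ratio. The serine enzyme Sars2, at 5.44 and 8.12 RPKM, and the alanine enzyme Aars2, at 1.29 and 2.23 RPKM, both had a log2 ratio of 0.50 and counting intervals above 1. For the others the counting interval held 1. The threonine enzyme Tars2 stood at 6.56 and 7.04 RPKM (log2 ratio 0.09), and the arginine enzyme Rars2 at 2.05 and 2.19 RPKM (0.07). The glutamate enzyme Ears2, at 1.33 and 1.08 RPKM (log2 ratio -0.16), and the asparagine enzyme Nars2, at 2.12 and 1.63 RPKM (-0.25), were slightly lower in the clodronate library. A difference in these enzymes was not detectable at this depth. Pars2, the proline enzyme, had 1.05 RPKM in the clodronate library and a value listed at 0 for vehicle, and it was left out of the counts because its mean was below 1 RPKM.

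Lars2, the mitochondrial leucine enzyme (mm9 chr9:123276057-123371782), stood apart in level. It was at 493 RPKM in the vehicle library and 793 RPKM in the clodronate library, 1.61-fold higher (counting interval 1.58 to 1.64). Its log2 ratio of 0.68 became 0.62 with upper quartile scaling and 0.58 after correcting for GC content and length, just short of 1.5-fold. The level was 42.3 and 44.4 times the next mitochondrial enzyme and 10.5 and 17.8 times the highest cytosolic enzyme. Lars2 made up 51.0% and 60.8% of the summed RPKM of the members, and it ranked 189 and 121 among all genes kept. In the GENCODE M21 transcript of 3894 bases, the stop codon ended at base 2908, and stretches after it matched other loci. AA474408 on chromosome 7 matched over 50 bases (96% identity) and 97 bases (94.8%), and Gm15564 on chromosome 16 over 72 bases (98.6%), both chosen after the match was seen. Rn45s, the precursor of ribosomal RNA, also chosen after its values were seen, stood at 1436 and 2692 RPKM, 1.87-fold higher in the clodronate library. The part of shared stretches and of ribosomal RNA in the level of Lars2 was not tested, and without Lars2 the mitochondrial median log2 ratio was -0.05.

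For 15 pairs of a cytosolic and a mitochondrial enzyme of the same amino acid, the ratio of their levels was compared between the libraries. Without Lars and Lars2, 14 pairs remained, and the cytosolic gene was the higher in 12 of them in the vehicle library and in all 14 in the clodronate library. The ratio of cytosolic to mitochondrial level ranged from 0.34 to 22.1 in the vehicle library and from 1.26 to 27.4 in the clodronate library. It was larger in the clodronate library for 8 of the 14 pairs and smaller for 6, and its median was 5.35 and 4.90. Fars2 was paired with Farsa and again with Farsb, so it was counted in both pairs, and both were among the 6. The order changed in 2 pairs. Yars2 stood above Yars in the vehicle library, where the ratio of Yars to Yars2 was 0.34, and below it in the clodronate library, where the ratio was 1.37. Cars2 stood above Cars in the vehicle library, with a ratio of Cars to Cars2 of 0.69, and below it in the clodronate library, with a ratio of 2.53.

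The log2 ratios of the members of a pair had opposite signs in 6 of the 15 pairs. These were the cysteine, histidine, methionine, threonine and tyrosine pairs and the pair of Farsb with Fars2. Among all genes kept, 51.6% lay above 0 and 48.4% below, so opposite signs are common between genes and the count is not particular to these enzymes. For Hars, Tars and Tars2 the counting interval held 1. The ratio of Mars to Mars2 went from 5.01 to 14.7 and that of Hars to Hars2 from 3.53 to 7.54, as the mitochondrial enzyme was the lower in the clodronate library. In the opposite direction, the ratio of Farsb to Fars2 went from 13.1 to 2.91 and that of Iars to Iars2 from 2.41 to 1.26. The valine enzymes moved together, with log2 ratios of 0.87 for Vars and 0.83 for Vars2, and so did the leucine enzymes, with 0.84 for Lars and 0.68 for Lars2. After correcting for GC content and length, Vars, Vars2 and Lars2 fell short of 1.5-fold, at 0.52, 0.47 and 0.58. Lars stayed past it at 0.82.

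**Figure D3:**
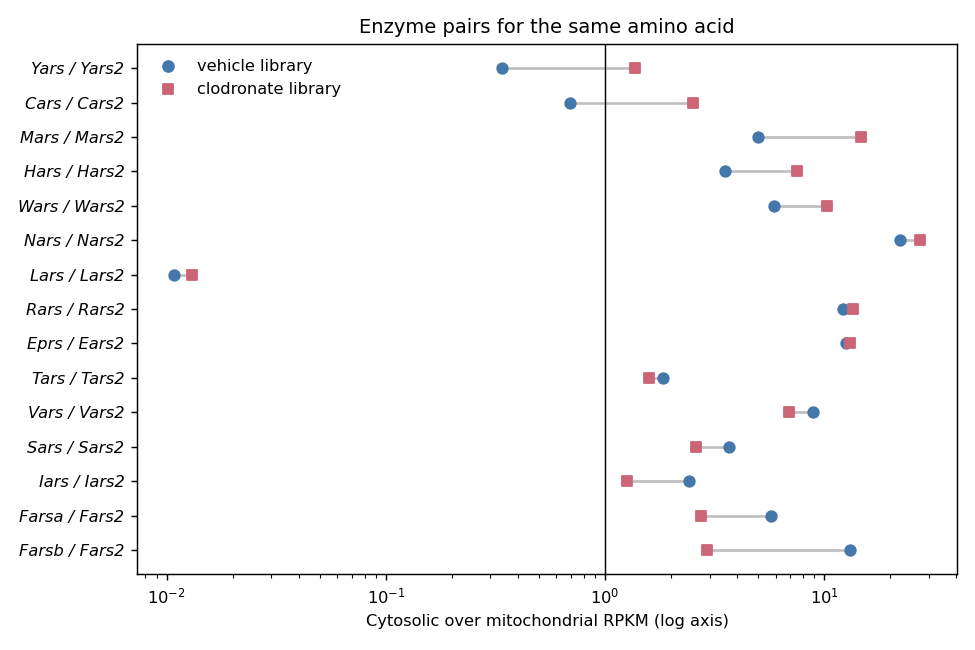
Ratio of the RPKM of the cytosolic enzyme to that of the mitochondrial enzyme of the same amino acid, on a log axis, for 15 pairs; circles mark the vehicle library and squares the clodronate library, with 1 library each and no error bars. The Yars and Cars pairs cross the line at 1 from left to right, and the Lars pair lies far to the left at 0.011 and 0.013 because of the level of Lars2.

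Genes that work beside the mitochondrial enzymes were also counted, where 48.4% of all genes kept lay below 0 on the log2 ratio and 16.3% were at least 1.5-fold lower. Of the 4 genes for glutaminyl-tRNA and formylmethionyl-tRNA, 0 were at least 1.5-fold higher and 3 lower. The amidotransferase subunit Qrsl1 stood at 5.30 and 2.77 RPKM, its subunit Gatc at 29.1 and 17.0 RPKM, and the formyltransferase Mtfmt at 16.9 and 7.78 RPKM. The remaining subunit, Gatb, stood at 3.17 and 5.20 RPKM, a log2 ratio of 0.57, so the subunits did not move together. All 6 mitochondrial translation factors had a log2 ratio below 0, with a median of -0.64, and 3 were at least 1.5-fold lower. The elongation factors Tsfm, at 6.61 and 2.18 RPKM, and Gfm1, at 16.3 and 7.42 RPKM, and the initiation factor Mtif2, at 8.497 and 2.97 RPKM, were these 3. For Gfm2 and Mtif3 the counting interval held 1.

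In the cytosol, 0 of 5 elongation factor genes were past 1.5-fold in either direction, with a median log2 ratio of 0.23. Among all genes kept, 16.6% were at least 1.5-fold higher and 16.3% lower. Of 10 genes of tRNA processing and export, 1 was at least 1.5-fold higher and 1 lower, with a median of 0.22. The lower gene was Trnt1, which adds the CCA end that a synthetase charges, at 13.3 RPKM in the vehicle library and 2.32 RPKM in the clodronate library. The tRNA exporter Xpot stood at 10.03 and 13.95 RPKM, a log2 ratio of 0.44. Of 6 editing and selenocysteine enzymes, 2 were at least 1.5-fold higher and 2 lower. All 6 averaged under 10 RPKM, where 22.1% of all genes kept were higher and 21.6% lower. Sepsecs, which makes selenocysteinyl-tRNA, stood at 2.74 and 5.11 RPKM, and Pstk, the kinase that acts before it, had 2.98 RPKM in the clodronate library and a value listed at 0 for vehicle. The deacylase Dtd1 stood at 5.44 and 3.05 RPKM, and Prorsd1 at 2.89 and 0.97 RPKM.

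**Figure D4:**
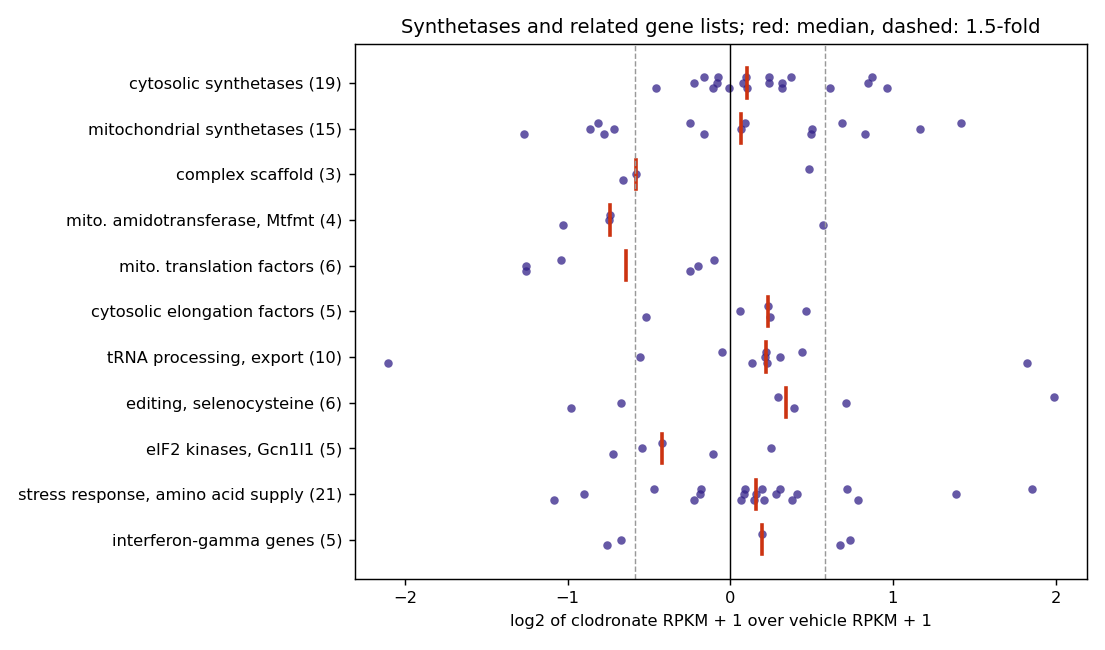
The log2 ratio of clodronate to vehicle, with 1 RPKM added to each, for the synthetases and related gene lists, with the number of genes kept in brackets; each point is a gene, red bars are medians over genes and dashed lines mark 1.5-fold. The cytosolic and mitochondrial synthetases share a median near 0 with unequal spread, and all 6 mitochondrial translation factors lie below 0, though the counting intervals of Gfm2 and Mtif3 held a ratio of 1.

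The GC content of the transcripts moved with the ratios, and their length did so less. Over the 34 members, Spearman's rho between the log2 ratio and GC content was 0.38, and over all genes kept it was 0.24. For transcript length it was 0.18 and 0.08. These are correlations across genes of the same 2 libraries, and genes are not independent replicates. The 8 higher members had a median GC content of 54.3% and a median length of 3937 bases, and the 5 lower members 47.7% and 2883 bases. After a correction for GC content and length, 4 members were at least 1.5-fold higher (Lars, Yars, Fars2 and Iars2) and 5 lower. The median cytosolic and mitochondrial log2 ratios were then 0.14 and 0.03.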

How the data were processed

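The authors deposited RPKM values for 23170 gene loci per library, each sample in a table of its own. The submitters' processing notes name CASAVA 1.8.2, TopHat2 2.0.9, Bowtie 0.12.9, Cufflinks 2.2.1, Cuffdiff and the build mm9, without their roles, and the annotation release and strand setting are not given in the sources used here. RPKM are not counts, so no count model was used.

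In 26 loci with a number as symbol the RefSeq accession was used. Lines of a symbol were summed, giving 22886 genes, of which 10982 had a mean of at least 1 RPKM and were kept. A pseudocount of 1 RPKM was added before log2. Promoter sequences are RefSeq's, and length and GC content came from GENCODE M21 transcripts with the same RefSeq accession, which covered 98.7% of the genes kept. Coordinates of mm9 and GRCm38.p6 were never combined. Among loci estimated at up to 8 fragments, 73.5% (vehicle) and 74.3% (clodronate) lay within 0.1 of a whole number, so fragment numbers are approximate. The correction subtracted median ratios of 10 bins of GC content, then of 10 bins of length.

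All members and the genes of the fixed lists could be named, and any further gene is named as picked with its values in view. The members and lists were chosen with earlier results of these data known. The results were recomputed with 0.1 as pseudocount, without the filter, with a minimum mean of 5 RPKM, with median centring, upper quartile scaling, the highest line per symbol, with the correction and with a fold of 2. Leaving out Lars2 or the members that share a locus was chosen after seeing the data. Values of a few listed genes are left out of the text. The scripts were tested on simulated data. Python 3.11.15, numpy 2.4.6, pandas 2.3.3, scipy 1.17.1 and blastn 2.17.0 were used.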

Additional observations from a re-analysis of the deposited data

How the results depend on the processing

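No paired analysis was possible because there was 1 library of each condition, and for the same reason no replicate could be left out. The mitochondrial median log2 ratio of 0.07 became 0.50 at a minimum mean of 5 RPKM, -0.047 without Lars2 and also -0.047 without the members that share a locus. The cytosolic median minus the mitochondrial, 0.04, became -0.40, 0.15 and 0.14 in the same order. The 8 members at least 1.5-fold higher became 4 under the correction for length and GC content and 2 at a fold of 2. The 5 at least 1.5-fold lower became 2 at a minimum mean of 5 RPKM and 1 at a fold of 2. The cytosolic over the mitochondrial median RPKM in the vehicle library, 5.24, became 5.77 with no filter, 2.70 at a minimum mean of 5 RPKM, 5.77 without Lars2 and 6.50 without the members that share a locus. In the clodronate library 6.95 became 2.77 at a minimum mean of 5 RPKM. Filters and left-out members change these values because fewer or other genes are counted, and the cause of the change under the correction was not tested. Of 136 values of single members under the alternatives that can change such a value, 131 stayed within counting error, 5 moved by more, and 0 called values changed sign. The filters and the highest line per symbol leave these values as they are. Levels near 1 RPKM rest on few fragments. The correction gives no value for the ratio of levels.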

Other observations

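Several synthetase genes lie head to head with a neighbour, starting within 1000 bases of it in the mm9 coordinates of the files, with the strands taken from GENCODE M21. Apart from the synthetases, these neighbours were chosen after their values were seen. Hars and Hars2, which lie 74 bases apart, were not alike, since Hars stood at 22.8 and 24.4 RPKM in the vehicle and clodronate libraries and Hars2 at 6.45 and 3.23 RPKM. Fars2 lies 53 bases from Lyrm4, a gene of iron-sulfur cluster assembly, and the neighbours moved in opposite directions, with Fars2 at 2.88 and 9.35 RPKM and Lyrm4 at 12.1 and 6.30 RPKM. Yars lies 312 bases from S100pbp, and here too the synthetase was higher in the clodronate library, at 3.80 and 8.35 RPKM, and the neighbour lower, at 6.32 and 3.31 RPKM. Sars2 and the mitochondrial ribosomal protein gene Mrps12, 186 bases apart, stood at 5.44 and 8.12 RPKM and at 49.95 and 33.8 RPKM. Kars hardly differed, at 42.4 and 42.2 RPKM, beside the telomere protein gene Terf2ip at 8.995 and 4.53 RPKM. Not all such neighbours differed from the synthetase. Rars2 and the replication gene Orc3 were both nearly level, with Orc3 at 10.4 RPKM in both libraries. Ears2 and Ubfd1 were both slightly lower, with Ubfd1 at 6.85 and 5.47 RPKM. Wars, at 22.5 and 20.0 RPKM, lies 97 bases from Wdr25, which stood slightly higher in the clodronate library, at 1.005 and 1.30 RPKM.

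Carkd, a neighbour of Cars2 at 730 bases and not head to head with it, moved with it, at 46.1 RPKM in the vehicle library and 19.4 RPKM in the clodronate library. The part of reads at the border of these loci was not tested.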
